A study of Mus musculus with 35 samples.

Results

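Lungs of mice given the neutrophil-depleting antibody anti-Ly6G were compared with lungs of mice given a control IgG, both at zeitgeber time 16 (ZT16, counted in hours after lights on). The comparison was chosen by treatment and time of day alone and holds 14 of the 35 libraries of the series, 7 per group. Both groups were male wild-type C57BL/6 mice of 7 to 9 weeks that received anti-Ly6G (clone 1A8) or IgG under the skin at 3 µg per g body weight on 2 consecutive days. The left lung lobe was flushed with PBS and frozen the day after the last injection. All ZT16 mice lived in cabinets with an inverted light cycle. In each group 3 libraries came from a batch of July 2017 and 4 from a batch of September 2017. The values are the authors' normalized expression values per gene, whose read depth is unknown, and libraries are called here by group, batch and their number in the table.

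Neutrophils are short-lived granulocytes made in the bone marrow, and many of them are held in the capillaries of the lung even without infection. Ly6G is a surface protein that mouse neutrophils carry at high levels, and an antibody against it is widely used to remove them. S100A8 and S100A9 are calcium-binding proteins that pair with each other and fill the neutrophil cytoplasm, so their messenger RNAs are common markers of these cells in mouse tissue. The number and age of circulating neutrophils vary over the day.

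S100a8 and S100a9 lie near each other on opposite strands of mouse chromosome 3. In the GRCm38 build with the GENCODE M21 annotation, S100a8 spans chr3:90668978-90670035 on the plus strand and S100a9 spans chr3:90692632-90695721 on the minus strand. Their promoters are shown because these are the marker genes on which the check of the treatment rests. Each is the 250 bases before the transcript start in RefSeq (GRCm38.p6), at chr3:90668821-90669070 on the plus strand and chr3:90695722-90695971 on the minus strand. For S100a8 the RefSeq start lies inside the GENCODE span given above. The end of that window, with the GAGGAA match nearest the start, therefore overlaps the span. Capitals mark matches on either strand to TTNNGNAA, a loose form of the C/EBP motif, and to GAGGAA, the core of the PU.1 motif. C/EBP and PU.1 are transcription factors of granulocyte development.
S100a8: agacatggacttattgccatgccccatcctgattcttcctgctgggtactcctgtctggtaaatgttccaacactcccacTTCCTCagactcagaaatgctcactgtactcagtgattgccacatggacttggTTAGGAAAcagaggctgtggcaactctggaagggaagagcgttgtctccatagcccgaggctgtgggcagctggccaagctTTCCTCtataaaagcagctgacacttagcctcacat
S100a9: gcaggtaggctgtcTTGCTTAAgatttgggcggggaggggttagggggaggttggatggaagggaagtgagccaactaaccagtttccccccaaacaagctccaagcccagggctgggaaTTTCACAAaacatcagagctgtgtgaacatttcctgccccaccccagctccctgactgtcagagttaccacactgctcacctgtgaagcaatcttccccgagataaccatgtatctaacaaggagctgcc
The S100a8 window holds 1 match to TTNNGNAA and 2 to GAGGAA, and the S100a9 window holds 2 matches to TTNNGNAA and 0 to GAGGAA. Of 32851 RefSeq promoter windows of this length, 36.9% hold TTNNGNAA and 23.3% hold GAGGAA. The matches describe the letters only.

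Over the whole transcriptome the groups were close to each other, and no gene passed the test. Genes at or above a value of 1 in at least 3 of the 14 libraries were kept, which left 16160 of 22211. Of these, 0 (0%) had a Benjamini-Hochberg adjusted p under 0.05 in limma on log2(value + 0.5) with a term for batch, and the lowest adjusted p was 0.965. At an unadjusted p under 0.05 the test gave 629 genes (3.89%), of which 300 (1.86%) had higher and 329 (2.04%) had lower values in anti-Ly6G lungs. The median difference was 0.00 on the log2 scale with quartiles at -0.06 and 0.06 and a median SE of 0.08. Only 77 genes differed by more than 0.5 and only 10 by more than 1. The groups did not overlap at all in 2 genes with higher values (0.0124%) and 4 with lower values (0.0248%). No gene is therefore called changed below, and every p of a single gene is an unadjusted limma p unless it is named otherwise.

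**Figure D1:**
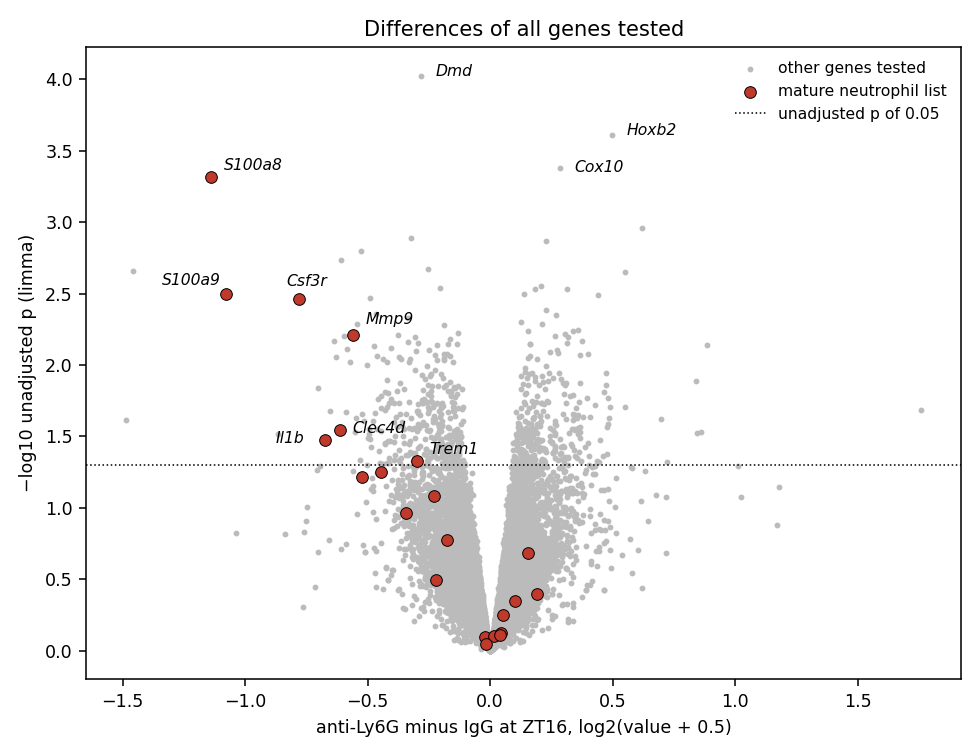
Difference between anti-Ly6G and IgG libraries at ZT16 on the log2(value + 0.5) scale (x axis) against -log10 of the unadjusted limma p (y axis) for the 16160 genes tested. The 22 tested genes of the mature neutrophil list are red, and S100a8, S100a9 and Csf3r lie at -1.14, -1.08 and -0.78, to the left of most genes.

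S100a8 was the neutrophil gene with the largest difference. Its value was 3.36 at the lowest, 4.21 at the median and 6.12 at the highest in anti-Ly6G lungs, against 3.05, 11.4 and 22.0 in IgG lungs. In 6 of 7 IgG libraries S100a8 was above every anti-Ly6G library, and the remaining one, IgG September library 3, was below all of them. The difference was -1.14 ± 0.27 (log2, SE) with a 95% interval of -1.70 to -0.58, which is 0.455 times the IgG level, and the unadjusted p was 0.000485. An exact two-sided permutation test within batches, over 1400 arrangements, gave p = 0.00714. The difference was -1.47 in the July libraries and -0.89 in the September libraries.

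S100a9, which encodes the partner protein, had the same order of samples at both ends. It measured 4.29, 4.62 and 7.60 (lowest, median, highest) in anti-Ly6G lungs and 4.02, 14.5 and 30.9 in IgG lungs. In 4 of 7 IgG libraries it was above every anti-Ly6G library, while IgG September library 3 was again the lowest of all 14. The difference was -1.08 ± 0.32 (log2, SE; 95% interval -1.75 to -0.41), with an exact permutation p of 0.0271. The anti-Ly6G libraries lay close together, and most of the spread of both genes was among the IgG libraries. S100a8 and S100a9 messages were still measured in every anti-Ly6G library.

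**Figure D2:**
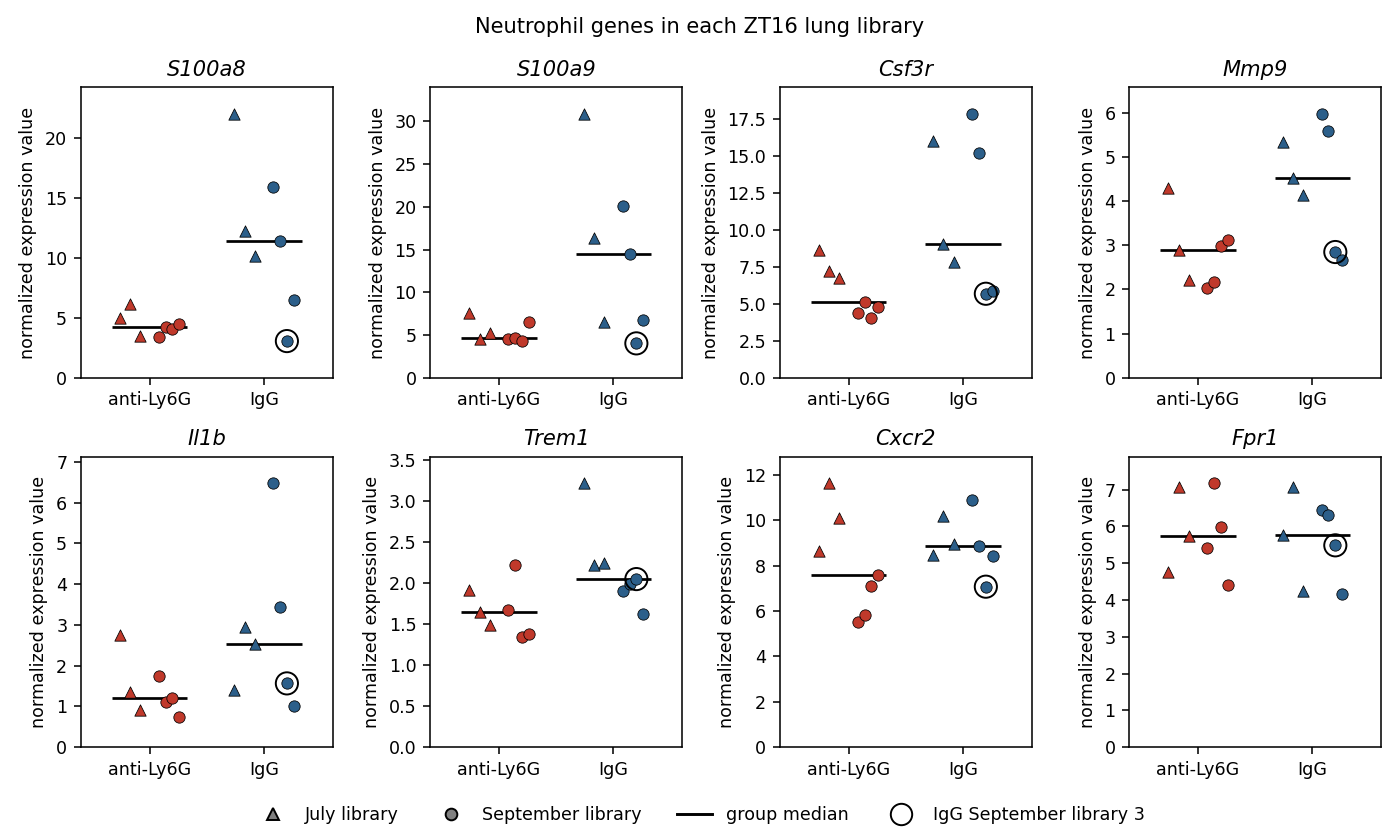
Normalized expression value (y axis) of 8 neutrophil genes in each of the 7 anti-Ly6G and 7 IgG libraries at ZT16, with triangles for July, circles for September, bars for group medians and a ring around IgG September library 3. For S100a8, 6 of 7 IgG libraries lie above all anti-Ly6G libraries, whereas Fpr1 covers the same range in both groups.

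IgG September library 3 stood apart from the other IgG libraries in more than neutrophil genes. Its mean log2 level over 23 heat shock genes was 8.49, against 7.04 to 7.30 in the other 6 IgG libraries and 7.04 to 7.64 in the anti-Ly6G libraries. The heat shock genes Hspa4l, at 286, and Dnajb4, at 148, were higher there than in any other IgG library. Its mean log2 levels over the T cell, B cell, natural killer and platelet lists, at 1.54, 2.42, 1.13 and 2.22, were the lowest of all 14 libraries. Without it the S100a8 difference was -1.38 and the adjusted p was 0.0333, so S100a8 was then the only gene called of 16160, and the groups no longer overlapped, with 6.50 as the lowest IgG value. Over all 28 alternatives run for S100a8 the adjusted p lay between 0.0333 and 0.999, and this was the only one under 0.05. It was left out with its S100a8 value known, and its removal alone separates the groups, so no permutation p is given without it. What sets this library apart was not tested.

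The other mature neutrophil genes ranged from lower to slightly higher values in anti-Ly6G lungs, and none of them was called changed. Of the 27 listed genes, 22 were kept by the filter on low values, 15 had negative and 7 positive differences, and 7 had lower values at an unadjusted p under 0.05, beside 2.04% of all genes tested. That count was 4 without IgG September library 1 and 9 without IgG September library 4. In those fits 734 and 552 of all 16160 genes were under this limit in either direction. With all libraries, none of the 22 listed genes reached this limit with higher values. The median difference of the 22 was -0.22, beside 0.00 over all genes tested. Fitted by batch, the July libraries gave a median of -0.26 and the September libraries one of -0.17. Among the members kept, Clec4d and Clec4e reached a value of 1 mostly in IgG libraries (4 and 5 of 7, against 1 and 0 of 7 in anti-Ly6G lungs), so the filter favoured them for being high in that group. Both are among the 15 negative differences and enter the counts and the median above, which are therefore given as values only. With no filter the median was -0.23. In bulk tissue, fewer neutrophils and less of a message per neutrophil cannot be told apart.

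Among surface receptors, Csf3r showed the clearest difference. It encodes the receptor for G-CSF, the growth factor of the neutrophil lineage. Csf3r measured 4.03, 5.13 and 8.64 in anti-Ly6G lungs, against 5.68, 9.03 and 17.9 in IgG lungs. In 4 of 7 IgG libraries it was above every anti-Ly6G library and in none was it below all of them. The difference was -0.78 ± 0.23 (limma unadjusted p = 0.00343), with -0.45 in July and -1.03 in September. Trem1, an activating receptor of myeloid cells, measured 1.35, 1.64 and 2.22 in anti-Ly6G lungs and 1.62, 2.05 and 3.21 in IgG lungs, a difference of -0.30 ± 0.14. Its groups overlapped, with 2 of 7 IgG libraries above all anti-Ly6G libraries. Clec4d, a receptor for mycobacterial glycolipids, had a median of 0.397 in anti-Ly6G lungs and 1.09 in IgG lungs, with a difference of -0.61 ± 0.26. The related receptor gene Clec4e differed by -0.45 ± 0.22, and Lilr4b, an inhibitory receptor gene, by -0.23 ± 0.12. The filter kept Clec4d and Clec4e mostly through IgG libraries, so their differences are given as values only and not as support.

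Chemokine and formyl peptide receptors did not follow Csf3r. Cxcr2, the receptor that draws neutrophils out of the bone marrow, measured 5.50, 7.60 and 11.6 in anti-Ly6G lungs and 7.07, 8.85 and 10.9 in IgG lungs. The groups overlapped fully, since both the lowest and the highest value belonged to anti-Ly6G libraries. The difference was -0.18 ± 0.12 (95% interval -0.44 to 0.08), at 0.13 in July and -0.40 in September. Fpr1, a receptor for bacterial peptides, measured 4.42, 5.75 and 7.17 in anti-Ly6G lungs and 4.17, 5.77 and 7.06 in IgG lungs, a difference of 0.04 ± 0.14. The related gene Fpr2 differed by 0.15 ± 0.12, the adhesion gene Itgam by 0.05 ± 0.14, and the glucose transporter gene Slc2a3 by 0.10 ± 0.13. The intervals of Fpr1 and Itgam reach down to -0.25, so a difference of the size seen for Csf3r lies outside both.

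Among the enzymes and cytokines of the list, Mmp9 and Il1b had lower values at an unadjusted p under 0.05. Mmp9, a gelatinase stored in neutrophil granules, measured 2.04, 2.90 and 4.29 in anti-Ly6G lungs and 2.67, 4.52 and 5.98 in IgG lungs. In 4 of 7 IgG libraries Mmp9 was above every anti-Ly6G library. The difference was -0.56 ± 0.18, at -0.54 in July and -0.57 in September (limma unadjusted p = 0.00617). Il1b, the gene of the cytokine interleukin-1β, had a median of 1.22 in anti-Ly6G lungs and 2.53 in IgG lungs and differed by -0.68 ± 0.29. It shares 25 exon bases with Il1bos. The collagenase gene Mmp8 differed by -0.22 ± 0.22, Padi4, whose enzyme citrullinates histones in neutrophils, by -0.34 ± 0.20, and the secreted protein gene Retnlg by -0.52 ± 0.26, none of them at an unadjusted p under 0.05. G0s2, Hdc, Mxd1 and Lrg1, which are not confined to neutrophils, differed by 0.05, 0.02, -0.02 and -0.02.

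The listed genes Ly6g, Il1r2, Stfa2l1, Nlrp12 and Cxcr1 were below the filter and were not tested. Ly6g, which encodes the protein bound by the antibody, measured 0.0796 to 0.418 in anti-Ly6G lungs and 0.0257 to 0.526 in IgG lungs, so its message was near the lowest values of the table in both groups and cannot serve as a check of the depletion. Il1r2, the decoy receptor gene for interleukin-1, had a median of 0.576 in anti-Ly6G lungs and 0.699 in IgG lungs, and its highest values were 0.752 and 1.93. The 22 genes kept include Clec4d and Clec4e, so their mean level is given as values only. Averaged over the 22, the log2 level per library ran from 2.49 to 2.83 with a median of 2.59 in anti-Ly6G lungs. In IgG lungs it ran from 2.57 to 3.25 with a median of 3.01. IgG September libraries 3 and 4, at 2.57 and 2.61, lay within the anti-Ly6G range, and so did IgG July library 5, at 2.80. Of the IgG libraries, 4 therefore lay above all anti-Ly6G libraries.

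Genes of immature neutrophils and their granules showed no common direction. Of 12 in the table, 7 were below the filter, among them the primary granule genes Mpo and Elane with medians under 0.1 in both groups. Of the 5 tested, 3 had positive and 2 negative differences. Ltb4r1, a receptor for leukotriene B4, measured 2.88, 3.37 and 4.01 in anti-Ly6G lungs and 1.55, 2.80 and 4.03 in IgG lungs, and differed by 0.36 ± 0.16 (limma unadjusted p = 0.045). The groups overlapped, with 4 of 7 IgG libraries below every anti-Ly6G library. Lcn2, which encodes an iron-withholding granule protein that airway epithelium also makes, differed by -0.08 ± 0.10, and Prtn3, a granule protease gene, by 0.33 ± 0.25.

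Chemokines and growth factors that call or produce neutrophils were measured next to these. None of the 5 tested genes of the chemokine list had an unadjusted p under 0.05, beside 3.89% of all genes. Nor did any of the 8 tested genes of the G-CSF, interleukin-17 and interleukin-23 axis. Cxcl15, an epithelial lung chemokine, measured 401, 490 and 536 in anti-Ly6G lungs and 447, 533 and 585 in IgG lungs, and 3 of 7 IgG libraries were above all anti-Ly6G libraries (difference -0.15 ± 0.07). Cxcl12, the chemokine that retains neutrophils in marrow, differed by 0.11 ± 0.09. Il17ra, the interleukin-17 receptor gene, differed by 0.16 ± 0.09, and Il17rc, its partner, by 0.05 ± 0.05. The chemokine genes Cxcl1, Cxcl2 and Cxcl5 and the growth factor gene Csf3 were below the filter in both groups.

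The same antibody was given at ZT4, with other IgG mice and again 7 libraries per group. S100a8 there measured 4.88, 7.88 and 12.5 in anti-Ly6G lungs and 6.23, 10.9 and 197 in IgG lungs, a difference of -1.18 ± 0.50. The highest IgG value came from 1 library, ZT4 IgG September library 3, and without it the highest was 42.9 and the difference was -0.60 ± 0.36. S100a9 differed by -1.59 ± 0.50 at ZT4 and by -1.03 ± 0.37 without that library, and Csf3r by -1.39 ± 0.35 and -1.02 ± 0.28. The median difference of the mature neutrophil list at ZT4 was -0.58, and -0.26 without that library, beside -0.22 at ZT16. The test of the ZT16 difference minus the ZT4 difference gave 0 of 16707 genes at an adjusted p under 0.05 (0%; 932 at an unadjusted p under 0.05), and 0 without that library (802). For S100a8 that difference of differences was 0.04 ± 0.70, and for Csf3r it was 0.61 ± 0.49, against -0.54 ± 0.50 and 0.24 ± 0.38 without that library. The ZT4 differences and their SEs came from a joint fit of the ZT4 and ZT16 libraries with a shared error. These SEs therefore do not give the spread at ZT4 alone. Equal and unequal responses at the 2 times cannot be told apart.

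**Figure D3:**
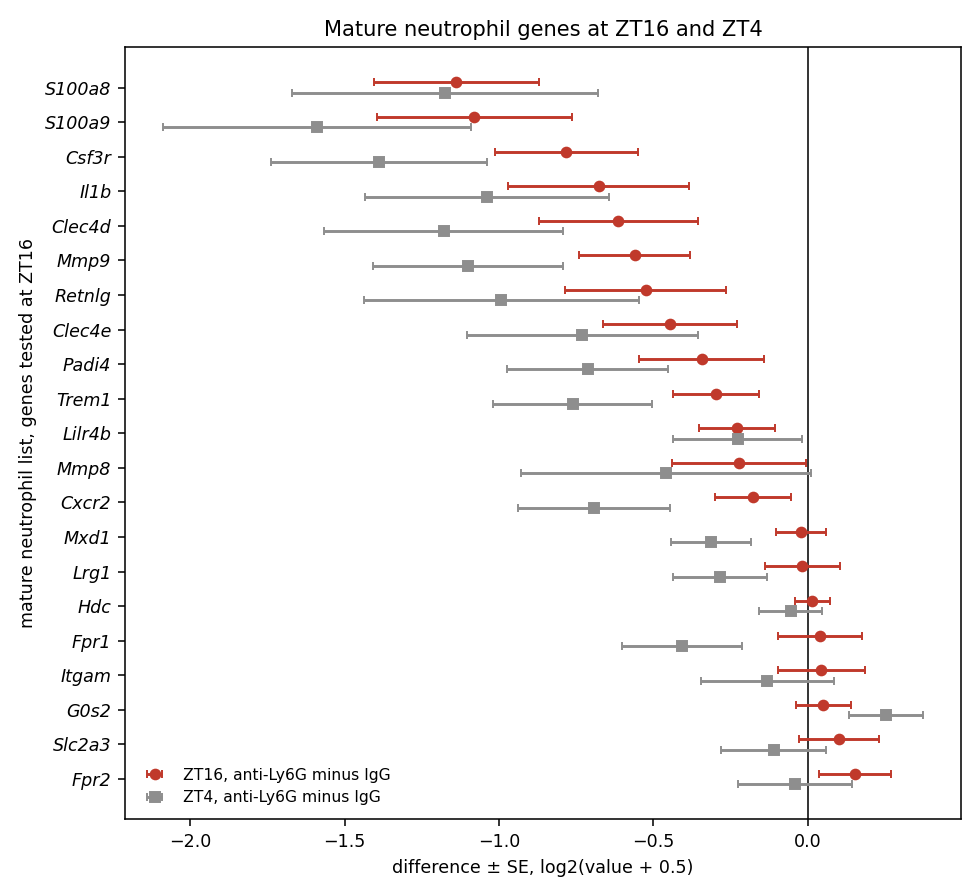
Difference between anti-Ly6G and IgG libraries (x axis, log2(value + 0.5), bars are SE) for 21 of the 22 tested mature neutrophil genes (y axis) at ZT16 (red circles) and at ZT4 (grey squares, all 14 ZT4 libraries). S100a8 lies at -1.14 at ZT16 and -1.18 at ZT4, and most of the genes shown lie further left at ZT4, with wider bars. The ZT16 bars come from the fit of the ZT16 libraries alone, the ZT4 bars from a joint fit of both times with a shared error. The widths of the bars therefore do not compare the spread of libraries at each time.

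No gene had a treatment difference that was shown to depend on the batch. The treatment by batch term had an adjusted p under 0.05 in 0 of 16160 genes (0%), with 704 at an unadjusted p under 0.05. Fitted alone, the July libraries called 1 gene, RP23-4F16.12, with a difference of 3.03 and an adjusted p of 0.00421 in limma. Its difference was -0.21 in the September libraries, and over all 14 libraries its adjusted p was 0.965. The September libraries alone called 0 genes.

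Alveolar type 1 cells are the thin cells that cover most of the gas exchange surface. All 24 listed genes were tested and all 24 had negative differences, with 5 lower at an unadjusted p under 0.05, beside 2.04% of all genes. The median difference was -0.16, but it was -0.39 in the July libraries and -0.04 in the September libraries. Igfbp2, the gene of an insulin-like growth factor binding protein, measured 69.3, 131 and 165 in anti-Ly6G lungs and 133, 161 and 175 in IgG lungs, a difference of -0.33 ± 0.15. Rtkn2 measured 128, 243 and 294 in anti-Ly6G lungs and 234, 273 and 340 in IgG lungs, a difference of -0.30 ± 0.12. In both genes 2 of 7 IgG libraries were above all anti-Ly6G libraries. Aqp5, a water channel gene, differed by -0.14 ± 0.06, and the receptor gene Ager by -0.16 ± 0.10, at -0.36 in July and 0.00 in September.

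The low alveolar type 1 values sat in a few anti-Ly6G libraries. The mean log2 level over the 24 genes was 8.01 in anti-Ly6G July library 4 and 8.43 in July library 1, between 8.61 and 8.83 in the other 5 anti-Ly6G libraries, and between 8.69 and 8.86 in the 7 IgG libraries. Without July library 4 the median difference was -0.09, and 0 of 24 genes had an unadjusted p under 0.05. Of all 16160 genes, 468 were under this limit in that fit. Without anti-Ly6G July library 5 the median was -0.22 with 17 of 24, but 1335 of all 16160 genes were then under this limit. With all 14 libraries that count was 629. Alveolar type 2 cells, which make surfactant, had 20 of 25 negative differences with a median of -0.03. Of these 25 genes, 1 was lower at an unadjusted p under 0.05, beside 2.04% of all genes. Ciliated and club cell lists had medians of 0.00 and 0.05.

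**Figure D4:**
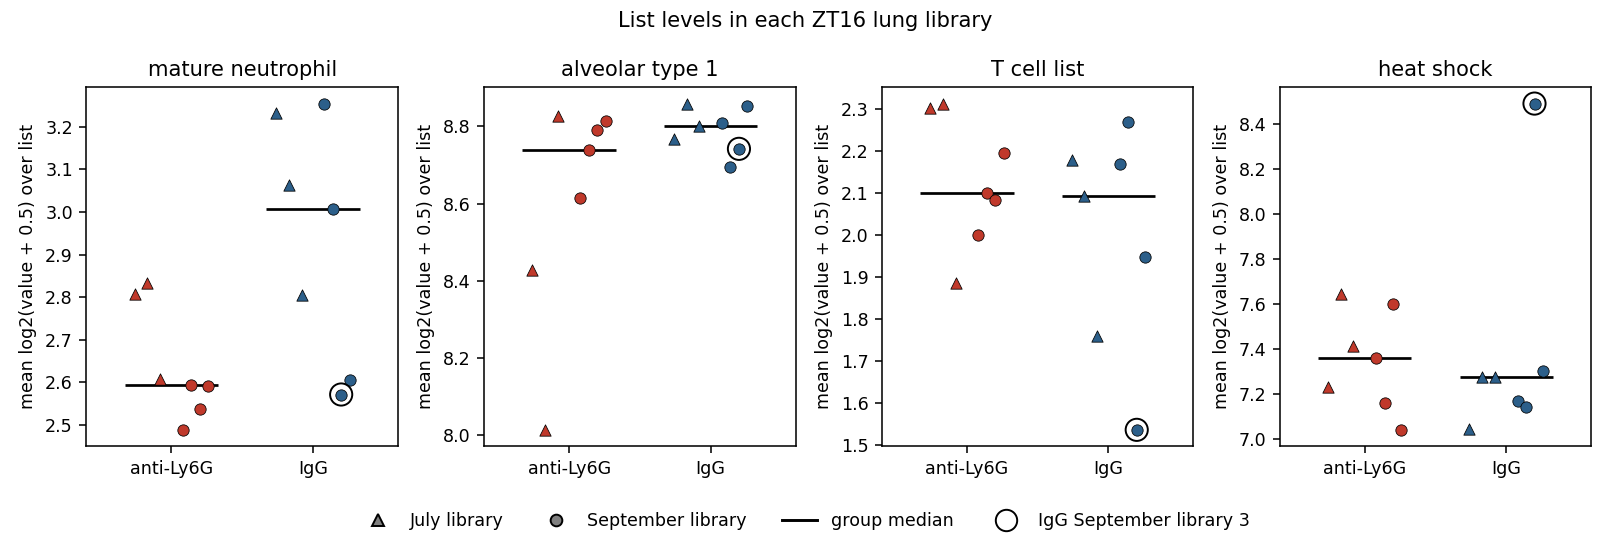
Mean log2(value + 0.5) over the listed genes (y axis) of 4 lists in each of the 7 anti-Ly6G and 7 IgG libraries at ZT16, with triangles for July, circles for September, bars for group medians and a ring around IgG September library 3. That library is lowest in the T cell list and highest in the heat shock list at 8.49, and the 2 lowest alveolar type 1 levels are anti-Ly6G July libraries.

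Endothelial and mural lists had mostly positive and small differences. Among general capillary genes 18 of 20 were positive and 4 were higher at an unadjusted p under 0.05, beside 1.86% of all genes, with a median of 0.09. Without IgG September library 4 the count was 1, and without IgG July library 5 the median was 0.04. Cdh5, which encodes the junction protein VE-cadherin, measured 621, 724 and 801 in anti-Ly6G lungs and 602, 649 and 735 in IgG lungs, a difference of 0.15 ± 0.06. In 2 of 7 IgG libraries it was below all anti-Ly6G libraries. Cd93, an endothelial surface lectin gene, differed by 0.15 ± 0.06 and the lipid droplet gene Hilpda by 0.20 ± 0.09. In aerocytes, the capillary cells specialised for gas exchange, 12 of 14 were positive with a median of 0.09, and the transcription factor gene Tbx2 differed by 0.20 ± 0.08. Artery and vein genes were positive in 16 of 16 with a median of 0.07 and none at an unadjusted p under 0.05. Smooth muscle and pericyte genes were positive in 19 of 21 with a median of 0.09, among them Notch3, a receptor of mural cells, at 0.19 ± 0.07.

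Matrix and mesothelial genes leaned the other way. Of 30 fibroblast and matrix genes 20 were negative with a median of -0.05, made up of -0.14 for July and 0.04 for September libraries. The collagen gene Col3a1 measured 397, 430 and 506 in anti-Ly6G lungs and 402, 510 and 664 in IgG lungs, a difference of -0.24 ± 0.09. Col3a1 shares 141 exon bases with Gm47302. Col5a2 differed by -0.15 ± 0.06. Inmt, a methyltransferase gene of lung fibroblasts, differed by 0.16 ± 0.07. Wt1, the transcription factor gene of mesothelium, measured 1.58, 2.88 and 3.28 in anti-Ly6G lungs and 3.01, 3.80 and 4.65 in IgG lungs, with 5 of 7 IgG libraries above all anti-Ly6G libraries and a difference of -0.42 ± 0.14. The median of the 20 mesothelial genes was -0.08.

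Other blood cells could have entered the comparison, since lung tissue retains blood after flushing. T cell genes were positive in 23 of 26 with a median of 0.15, B cell genes in 21 of 23 with a median of 0.16, and natural killer genes in 16 of 21 with a median of 0.12. Without IgG September library 3, which was lowest in all of these lists, the medians were 0.07, 0.07 and 0.04. Cd2, an adhesion gene of T and natural killer cells, measured 9.29, 10.1 and 10.5 in anti-Ly6G lungs and 6.25, 8.44 and 10.8 in IgG lungs, a difference of 0.26 ± 0.12, with overlapping groups. Nonclassical monocyte genes, those of monocytes that patrol vessel walls, had the highest median of these lists, at 0.19, and 0.09 without that library. Classical monocyte, dendritic and alveolar macrophage lists had medians of 0.06, 0.01 and 0.04. No gene of the classical monocyte, dendritic, alveolar macrophage or B cell list had an unadjusted p under 0.05, beside 3.89% of all genes. The T cell, natural killer and nonclassical monocyte lists each had 1 gene higher at this limit, beside 1.86% of all genes. Each had 0 at this limit without IgG September library 3. Erythroid genes had a median of 0.39 over July and of -0.61 over September libraries, and their mean log2 level ran from 3.79 to 5.30 in anti-Ly6G lungs and from 3.57 to 5.63 in IgG lungs.

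Genes for taking up dying cells and for binding the antibody itself were near the level of IgG lungs. Of 21 genes of efferocytosis and the LXR pathway, which macrophages use when they clear neutrophils, 17 were positive with a median of 0.06. Axl, a receptor for dying cells, measured 118, 137 and 138 in anti-Ly6G lungs and 105, 124 and 130 in IgG lungs, a difference of 0.13 ± 0.06. Of 21 Fc receptor and complement genes 10 were positive with a median of 0.00. Fcgr1, the high-affinity IgG receptor gene, measured 3.20, 4.22 and 5.49 in anti-Ly6G lungs and 2.25, 3.01 and 5.18 in IgG lungs, a difference of 0.32 ± 0.15, with 4 of 7 IgG libraries below all anti-Ly6G libraries. Both genes had an unadjusted p under 0.05 and neither did without IgG September library 3. The interferon and NF-kB lists had medians of -0.03 and -0.01.

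**Figure D5:**
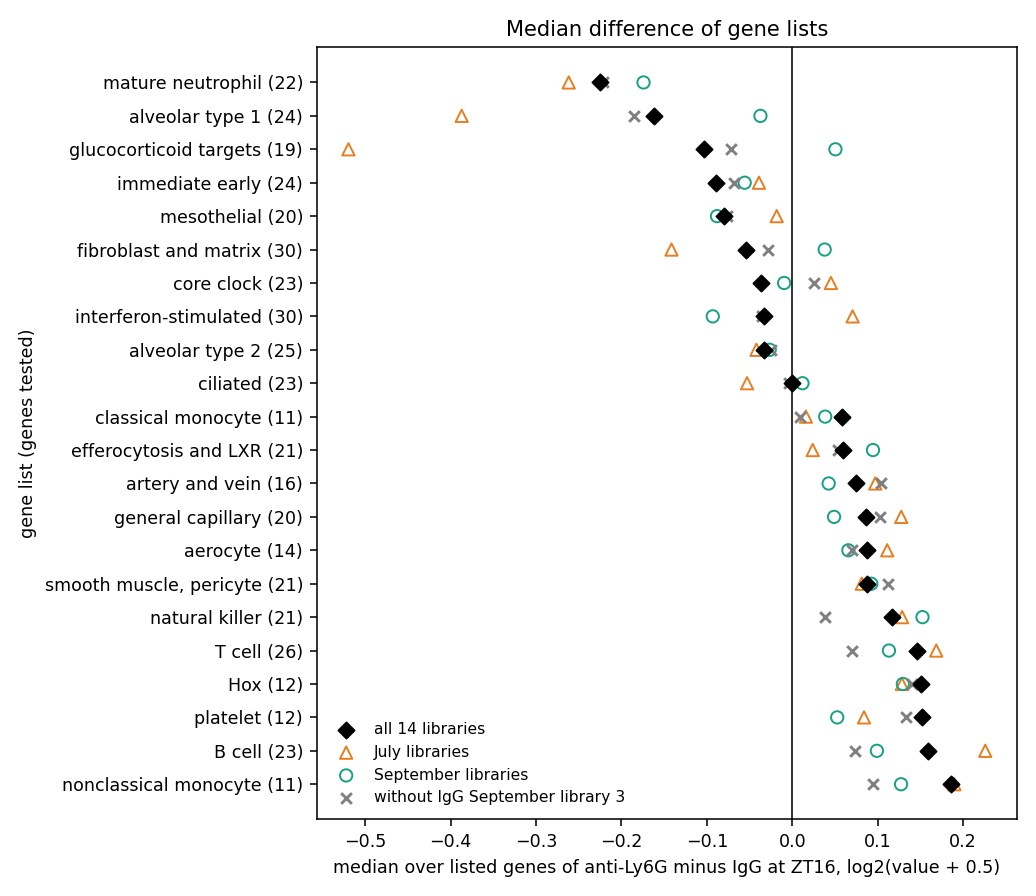
Median over the listed genes of the difference between anti-Ly6G and IgG libraries (x axis, log2(value + 0.5)) for 22 gene lists (y axis, number of genes tested in brackets), over all 14 libraries (black), July (orange) and September (green) libraries, and without IgG September library 3 (grey). Over all 14 libraries the mature neutrophil list lies lowest at -0.22, and the alveolar type 1 list lies at -0.39 in July and -0.04 in September.

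The molecular clock was compared because the groups were taken at 1 fixed time of day. Of 23 clock genes tested, 9 were positive and 14 negative, with a median of -0.04, and it was 0.03 without IgG September library 3. Cry1, a repressor of the clock, measured 39.4, 48.3 and 51.3 in anti-Ly6G lungs and 37.5, 44.6 and 50.5 in IgG lungs, a difference of 0.09 ± 0.07. Per2, another repressor, differed by -0.05 ± 0.11 and Arntl, the activator, by 0.11 ± 0.19, with intervals of -0.29 to 0.18 and -0.28 to 0.51. Nr1d1, whose product represses Arntl, differed by 0.13 ± 0.26 over values of 13.4 to 59.0 in anti-Ly6G lungs and 14.8 to 57.2 in IgG lungs. The groups of these 4 genes overlapped. Bhlhe41, a further repressor, was the only clock gene with an unadjusted p under 0.05, beside 3.89% of all genes. It measured 13.98, 17.6 and 20.7 in anti-Ly6G lungs and 11.7, 13.96 and 18.2 in IgG lungs (difference 0.27 ± 0.08), and it shares 1280 exon bases with the gene Gm43909.

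Immediate early genes, which respond within minutes to signals and handling, had 15 of 24 negative differences with a median of -0.09. Fosb, a subunit of the AP-1 factor, differed by -0.43 ± 0.19, at -0.04 in July and -0.72 in September. Atf3, a stress factor gene, differed by -0.33 ± 0.15, and Nr4a2, a nuclear receptor gene, by -0.31 ± 0.14. Their groups overlapped. Glucocorticoid target genes had a median of -0.10, at -0.52 in July and 0.05 in September. Their mean log2 level was lowest in anti-Ly6G July library 1, at 5.00, and without it the median was 0.03.

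The gene of smallest p lay outside the neutrophil list, though the p of S100a8 given above was close to those of Hoxb2 and Cox10 below. Dmd, the dystrophin gene of muscle and vessel walls (chrX:82948870-85206141, GRCm38), measured 35.6, 38.1 and 43.2 in anti-Ly6G lungs and 42.0, 47.0 and 51.6 in IgG lungs. In 6 of 7 IgG libraries it was above all anti-Ly6G libraries. The difference was -0.28 ± 0.06 (limma unadjusted p = 9.47e-05, adjusted p = 0.965), at -0.27 in July and -0.29 in September. The 21 tested genes of the dystrophin complex had a median of -0.01. Dmd was the only one of them with an unadjusted p under 0.05, beside 3.89% of all genes.

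Hoxb2 belongs to the Hox genes, which set regional identity in the embryo and stay on in adult lung stroma. Of 12 Hox genes tested 11 were positive and 3 were higher at an unadjusted p under 0.05, beside 1.86% of all genes, with a median of 0.15. Hoxb2 is among the 3, and the list was chosen with earlier results of these data known, so the count is no separate support. Without anti-Ly6G July library 1 the count was 1. Hoxb2 (chr11:96350525-96354012) measured 8.49, 9.00 and 12.1 in anti-Ly6G lungs and 5.17, 6.57 and 8.53 in IgG lungs. In 6 of 7 IgG libraries it was below all anti-Ly6G libraries, and only IgG September library 3 was not. The difference was 0.50 ± 0.11 (limma unadjusted p = 0.000245), at 0.50 in July and 0.49 in September. Hoxa2 differed by 0.35 ± 0.14. Both genes share exon bases with a neighbouring noncoding gene, 953 of them for Hoxb2 with Hoxb3os, and the sources used here do not say whether counting used strand.

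Cox10 was one of the 6 genes whose groups did not overlap. It encodes an enzyme that makes the heme of cytochrome c oxidase, the last complex of the respiratory chain, and lies at chr11:63962627-64079468. Cox10 measured 12.6, 13.9 and 14.5 in anti-Ly6G lungs and 10.5, 11.007 and 12.007 in IgG lungs, a difference of 0.28 ± 0.07 (limma unadjusted p = 0.000414). Taco1, a translation activator of the same complex, differed by 0.31 ± 0.10 and Cox20, an assembly factor, by -0.37 ± 0.13. Cox10, Taco1 and Cox20 share 49, 245 and 804 exon bases with neighbouring genes. The 30 tested genes of this complex and of heme synthesis had a median of 0.02 with 18 positive. Cox10, Taco1 and Cox20 were the only ones with an unadjusted p under 0.05, beside 3.89% of all genes. This list too was chosen with earlier results of these data known, so the count is no separate support. The other genes without overlap were Arhgap27 at 0.13 ± 0.04 (with 1479 exon bases shared with antisense genes), Cog6, a Golgi gene, at -0.13 ± 0.04, and Kdf1, Gm4787 and Gm15614 at -0.25, -0.61 and -0.53, which were named after their values were seen.

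Other genes of small p had differences of modest size, and the same sign in both batches was a condition for naming most of them. Higher values were measured for Peg13, an imprinted noncoding gene, at 0.23 ± 0.06, the endosome gene Ehd3 at 0.21 ± 0.06, Fibin at 0.18 ± 0.05 and the phospholipid transfer gene Pltp at 0.21 ± 0.07. Lower values were measured for Podn, a matrix proteoglycan gene, at -0.21 ± 0.06, Slpi, a protease inhibitor that restrains neutrophil elastase, at -0.25 ± 0.08, and Unc13d, which is needed for granule release in leukocytes, at -0.22 ± 0.07. Slpi measured 24.99, 26.9 and 35.5 in anti-Ly6G lungs and 29.4, 34.5 and 43.8 in IgG lungs, and its groups overlapped. Each of these genes had an adjusted p of 0.965 in limma.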

How the data were processed

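Bulk RNA was sequenced from the left lung lobe. The signal values were made by the authors, who deposited 1 normalized expression value per gene and library, per the file headers. They are never negative and not whole, so no count test was used. The normalization, and whether the authors adjusted for batch, are not given in the sources used here. Per the submitters' processing notes, the tools were kallisto 0.43.1, RSEM 1.2.20, CASAVA 1.8.2 and cutadapt, and the genome build was GRCm38, with no role or order named. Library totals ran from 979847 to 1033550, read depth is unknown, and counting error could not be given. Table columns name the group and batch but no single mouse, so p-values measure the spread between libraries.

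Genes with a value of at least 1 in at least 3 of 14 libraries were tested on log2(value + 0.5) with limma 3.58.1 in R 4.3.3, as anti-Ly6G minus IgG with a September term and 11 residual degrees of freedom, two-sided, with Benjamini-Hochberg adjustment over 16160 genes. Fold changes on this scale understate the change of low genes. Over genes, the batch term divided by its SE had an SD of 1.13 in this fit and of 0.512 in the fit of all 28 antibody libraries, where about 1 is noise alone, so SEs of the ZT16 against ZT4 test may be too small. The fit was tested on simulated data.

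Members and gene lists were chosen with earlier results of these data known. Of 795 listed symbols, 780 were in the table. Genes were named by a rule: the neutrophil genes S100a8, S100a9, Csf3r, Cxcr2, Retnlg, Mmp9, Mmp8, Il1r2, Clec4d, Trem1 and Ly6g, the 10 of smallest p per direction with the same sign in both batches and at least median level, up to 6 per direction among genes without overlap, and up to 3 of smallest p per described list. The other neutrophil genes, Cry1, Per2, Arntl, Nr1d1, Ager, Mpo, Elane and the chemokine and growth factor genes below the filter were named after their values were seen. A few named genes are left out of the text. Library numbers were not used to pair samples in the main fit. Alternatives changed the pseudocount, filter, scaling, variance model, batch term and libraries.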

Additional observations from a re-analysis of the deposited data

Results flagged for a closer look

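Among the 2 groups of each of 109 named genes (218 groups of 7 libraries), 11 held a library set far apart from the nearest of the others relative to the range of its group. Among independent groups chance would flag about 1 in 20. Genes of the same library vary together and the genes were named from these data, so the number cannot be judged against that rate.

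Of the 11, 6 concern IgG September library 3. The heat shock genes Hspa4l (286, others 119 to 159), Hspa4 (243, others 174 to 196) and Dnajb4 (148, others 74.2 to 94.3) and the clock repressor Per2 (269, others 124 to 168) were high in this library. The platelet genes Pf4 (2.66, others 4.91 to 6.21) and Tubb1 (2.13, others 3.77 to 4.79) were low in it.

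IgG September library 4 was low for Mapt, at 147 with the others at 167 to 171, and for Prtn3, at 0.145 with the others at 0.567 to 1.05. In anti-Ly6G libraries, Lrrc1 was low at 26.7 in July library 1 (others 30.9 to 34.5), Taco1 was low at 7.85 in September library 4 (others 9.36 to 10.4), and Hoxb2 was high at 12.1 in September library 1 (others 8.49 to 9.87).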

How the results depend on the processing

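Over 28 alternatives, 0 genes were called except 1 in the July libraries alone (RP23-4F16.12) and 1 without IgG September library 3 (S100a8), so leaving out single libraries gave 0 to 1. S100a8 differed by -1.38 to -0.99 and S100a9 by -1.30 to -0.86 over the 14 fits without 1 library. The median of the mature neutrophil list stayed between -0.28 and -0.17. Of 107 named genes tested, 12 turned sign in some alternative, all of them with a difference of at most 0.18 in size. July libraries alone gave Cxcr2 0.13, Ralgps2 -0.012, Hdc -0.00087, Itgam -0.12 and Per2 0.078. September libraries alone gave Il17rc -0.027, Lcn2 0.016, G0s2 -0.070, Mxd1 0.024, Lrg1 0.012 and Nr1d1 -0.22. Without 1 library, the range was -0.030 to 0.094 for G0s2, -0.0046 to 0.048 for Hdc, -0.069 to 0.028 for Mxd1, -0.074 to 0.046 for Lrg1, -0.029 to 0.098 for Fpr1, -0.022 to 0.16 for Itgam, -0.12 to 0.051 for Per2 and -0.093 to 0.26 for Nr1d1. The cause was not tested. With the table number as a replicate block, 0 genes were called (963 at an unadjusted p under 0.05), S100a8 differed by -0.99, Lrg1 by 0.054 and Nr1d1 by -0.092. Same-numbered libraries correlated at -0.08 to 0.15 in their deviations and 3 of 6 correlated best with their own number. So few libraries cannot settle whether the numbers pair samples. The fit without ZT4 IgG September library 3 was chosen after seeing the data. Unadjusted counts ran from 451 without IgG July library 5 to 1335 without anti-Ly6G July library 5, beside 629. List counts at an unadjusted p under 0.05 also varied over the fits without 1 library. They were 0 to 2 of 26 T cell, 0 to 5 of 21 natural killer and 0 to 3 of 11 nonclassical monocyte genes. Smooth muscle genes numbered 0 to 5 of 21 and aerocyte genes 1 to 5 of 14. Fibroblast genes numbered 1 to 5 of 30 and immediate early genes 0 to 4 of 24. The highest natural killer and nonclassical monocyte counts came without anti-Ly6G July library 5, where 1335 of all 16160 genes were under this limit. Unknown depth limits what can be said of genes below a value of 1.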

Other observations

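Lists not described above showed small medians. Plasma cell genes had 5 of 7 positive differences with a median of 0.13, interstitial macrophage genes 10 of 13 with a median of 0.08, and adhesion and homing genes 12 of 17 with a median of 0.07, each with 1 gene higher at an unadjusted p under 0.05, beside 1.86% of all genes. In each of these 3 lists some fit without 1 library left 0. Heart muscle genes had 15 of 24 negative differences with a median of -0.05, which was 0.04 without IgG September library 3, the highest in this list. Lipid synthesis and cell cycle genes had medians of 0.01 and 0.00, and lymphatic endothelial genes one of 0.04. Eosinophil, basophil and mast cell genes had 6 of 14 genes above the filter, a median of 0.04 and none at an unadjusted p under 0.05. Platelet genes had 8 of 12 positive differences and a median of 0.15.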
